A study of Mus musculus with 6 samples.

Results

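Nuclear receptor genes were examined in livers of insulin-resistant (IR) mice. The 34 genes were taken by symbol from a list of receptors assembled by function, and were found among 54532 genes in the deposited count table. Of these receptors, 30 had enough counts to be tested, out of 13377 genes tested in all, and Nr4a2, Nr4a3, Hnf4g and Vdr did not. The livers came from male C57BL/6J mice put on a high-fat diet (HFD) at 8 weeks of age and kept on it for 6 weeks, so both groups carried the diet and no chow-fed liver was compared. After a 16 h fast, 3 mice received insulin intraperitoneally at 0.75 units per kg body weight (IR insulin) and 3 received bovine serum albumin, the vehicle (IR vehicle), and the livers were taken 6 h later. Each library held the RNA of 1 whole liver sample, in which fewer cells of a type and less RNA per cell cannot be told apart. The comparison asks which receptor transcripts still respond to insulin in the IR state.

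Nuclear receptors are transcription factors that bind DNA through a pair of zinc fingers, and most of them change activity when a small lipophilic ligand enters the domain at the other end of the protein. In liver they couple fatty acids, oxysterols, bile acids, thyroid hormone, glucocorticoids, retinoids and foreign compounds to the genes that handle them. Many bind DNA as heterodimers with a retinoid X receptor (RXR), others bind as homodimers or monomers, and several are orphans with no settled ligand.

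The P box, a short stretch at the base of the first zinc finger, contacts the bases of the DNA half-site and helps set which half-site is read. Receptors with different P boxes can still read similar half-sites. To show how the members relate, the stretch of coding sequence from the first cysteine codon of that finger to the end of the P box was taken from GENCODE release M21 for 33 of the 34 receptors (Nr3c1 was not included). It was 69 bases long in each, and the encoded P boxes fell into 7 classes. The largest class held 23 members, among them the RXRs, PPARs, RARs, thyroid hormone receptors, LXRs, Nr1i2, Nr1i3, Rora and the NR4A genes, and used 17 different codings of the same P box. The COUP-TF genes Nr2f1, Nr2f2 and Nr2f6 formed a class of 3, and Hnf4a with Hnf4g and Esrra with Esrrg formed classes of 2. Esr1, Nr5a2 and Nr3c2 stood alone among these 33. Because Nr3c1, the other corticosteroid receptor, was not included, it was not examined whether Nr3c2 would share a class with it. The sequences below show members of 6 classes, with 3 members of the largest class, and the 18 bases of the P box are in capitals.
Hnf4a: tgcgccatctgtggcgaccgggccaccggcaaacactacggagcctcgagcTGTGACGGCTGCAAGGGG
Rxra: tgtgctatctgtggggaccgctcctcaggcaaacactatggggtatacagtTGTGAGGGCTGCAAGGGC
Ppara: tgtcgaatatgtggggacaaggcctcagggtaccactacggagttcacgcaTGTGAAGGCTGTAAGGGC
Rora: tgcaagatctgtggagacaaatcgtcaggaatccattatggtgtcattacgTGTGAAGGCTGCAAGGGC
Nr2f6: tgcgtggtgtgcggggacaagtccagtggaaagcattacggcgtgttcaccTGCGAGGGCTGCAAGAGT
Esrra: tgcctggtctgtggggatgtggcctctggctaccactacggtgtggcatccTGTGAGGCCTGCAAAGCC
Esr1: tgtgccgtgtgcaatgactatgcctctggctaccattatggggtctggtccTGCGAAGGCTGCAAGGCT
Nr5a2: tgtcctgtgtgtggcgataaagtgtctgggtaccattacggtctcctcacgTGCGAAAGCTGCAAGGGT
In build mm10 the Hnf4a stretch lies at chr2:163551639-163551707 on the plus strand, in exon 2, and the Nr2f6 stretch at chr8:71381035-71381103 on the minus strand, in exon 1. The Esr1 stretch lies at chr10:4746717-4746785 on the plus strand, in exon 3. The Rxra stretch crosses a splice junction and spans chr2:27741176-27741804, with its bases in exons 3 and 4, and that of Rora spans chr9:69348152-69361741, also in exons 3 and 4. The shared fold is written in bases of unequal composition: 68.1% of the Hnf4a stretch was G or C, against 47.8% of the Rora stretch. Over the whole longest transcript the GC content of the 30 tested members ran from 40.9% in Rora to 67.3% in Nr2f6, a range that matters below.

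The libraries were similar in depth, with totals between 18449986 and 21827619 counts. The 5 hepatocyte markers (Alb, Apoa1, Ttr, Cps1 and Serpina1a) were high in every library and summed to between 53928 and 155975 CPM (normalised counts, scaled with the TMM method of edgeR), so the defining genes of liver were present. IR vehicle replicate 2 stood apart from the other 5 libraries: 16470 genes were detected in it, against 18389 to 18874 in the others, and its hepatocyte marker sum was the highest. Its erythroid marker sum was also the highest (1234 CPM, against 299 to 604), as were its neutrophil and its B and T cell sums. Its sums of sinusoidal endothelial, Kupffer and macrophage, and bile duct markers were the lowest. IR vehicle replicate 3 had the highest sum of 6 sinusoidal endothelial markers (259 CPM, against 140 to 163 in the rest) and the lowest neutrophil sum (4.82 CPM, against 31.6 to 78.8). Of 5 pancreatic genes, 4 had no count, and the other, Cela1, had 14.5 to 18.3 CPM. Results that rest on these 2 vehicle libraries are given with and without them.

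Levels of different receptors were compared as CPM per kilobase of merged exons. The receptor repertoire was led by Hnf4a, the orphan receptor that maintains hepatocyte identity, at 135 ± 29.5 CPM per kb (SD, n = 6), which placed it at percentile 97.1 of the tested genes. Rxra, the common heterodimer partner, followed at 63.0 ± 9.15, then Nr1h3 (LXRα, the oxysterol receptor) at 47.9 ± 5.26, Ppara (the fatty acid receptor of fasting) at 39.5 ± 11.8, and Nr1i2 (PXR, a sensor of foreign compounds) at 26.8 ± 5.69. In the next places were Nr2f6, an orphan of the COUP-TF family, at 18.8 ± 9.39 and Nr3c1, the glucocorticoid receptor, at 10.3 ± 4.97. These 7 were the members at 10 CPM per kb or more, and 24 of the 34 reached 1 CPM per kb. The latter number was 21 to 23 when a library was left out. Nr3c1 reached 10 CPM per kb only through IR vehicle replicate 2. It had 20.3 CPM per kb there, and its mean without that library was 8.24. Hnf4a and Rxra together made up 46.4% ± 5.1 (SD, n = 3) of the summed member level in IR vehicle and 49.7% ± 5.7 in IR insulin, while the sum itself was 394 ± 54 CPM per kb in IR vehicle and 423 ± 20 in IR insulin.

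Below this group the order was less firm. Hnf4a in its lowest library (92.1 CPM per kb) lay above Rxra in its highest (70.2), so the first 2 places did not overlap. Rxra (45.3 to 70.2), Nr1h3 (41.0 to 55.3) and Ppara (22.3 to 58.8) did overlap, as did Nr3c1, Nr1h2, Nr5a2, Esrra and Rxrb, whose means lay between 7.25 and 10.3. The median of the 30 tested members was 3.23 CPM per kb, and that of all tested genes was 2.89. With the longest transcript in place of merged exons the ranks changed by at most 3 places (Spearman correlation 0.993 over 34 members).

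**Figure D1:**
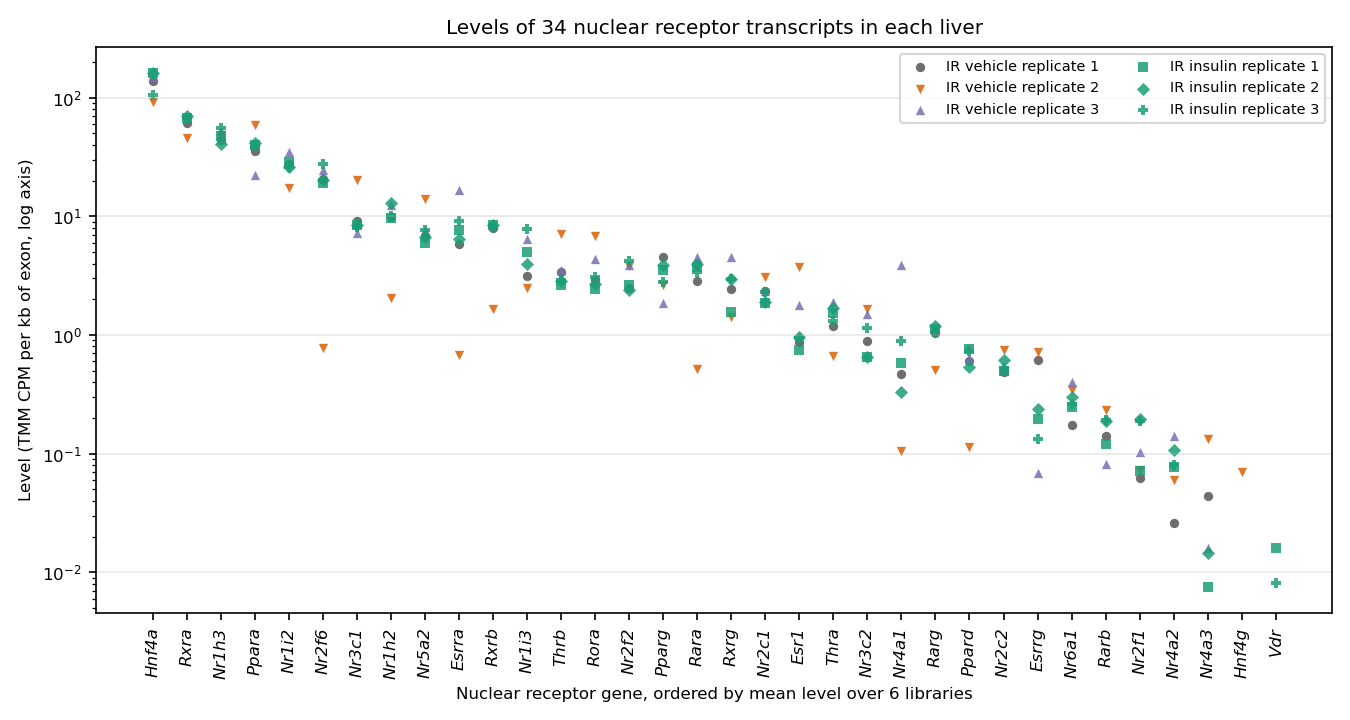
Level of each of the 34 receptors in each library, as TMM CPM per kb of exon on a log axis, ordered by mean level; each symbol is 1 library and zeros are not drawn. Hnf4a leads at 92.1 to 162 CPM per kb, and the orange triangles of IR vehicle replicate 2 fall away from the other libraries in many genes.

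The receptors at the low end included genes whose proteins act mainly in other tissues or cells. Vdr, the vitamin D receptor, had 0, 0 and 0 counts in IR vehicle and 2, 0 and 1 in IR insulin. Hnf4g, the paralogue of Hnf4a, had 3 counts in IR vehicle replicate 2 and none elsewhere, and a count of 0 allows up to 3 counts, which is 0.130 to 0.184 CPM in these libraries (counting error only). Nr4a2 had 2, 4 and 12 counts in IR vehicle and 7, 10 and 7 in IR insulin, and Nr4a3 had 5, 13 and 2 against 1, 2 and 0. These 4 members were the ones under 0.1 CPM per kb, and they were not tested between groups.

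Within families of paralogues 1 gene usually dominated. Rxra made up 83.4% to 87.1% of the RXR level in the libraries other than IR vehicle replicate 2, with Rxrb at 10.3% to 11.1% and Rxrg at 2.01% to 5.64%. Ppara made up 87.4% to 91.5% of the PPAR level, and Pparg, the adipogenic PPAR that rises in fatty liver, 6.71% to 11.1%. Nr1h3 held 76.0% to 84.7% of the LXR level over Nr1h2. In IR vehicle replicate 2 each of the leading genes held more: Rxra was at 93.7% with Rxrb at 3.42%, Ppara was at 95.5%, and Nr1h3 was at 95.9% with Nr1h2 at 4.09%.

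Retinoic acid, thyroid hormone and COUP-TF receptors had the following make-up in the same 5 libraries. Rara held 70.8% to 79.0% of the retinoic acid receptor level, with Rarg at 19.6% to 25.7%. Thrb, the main thyroid hormone receptor of hepatocytes, held 62.8% to 74.1% over Thra. Nr2f6 held 85.9% to 89.0% of the COUP-TF level. In IR vehicle replicate 2 these shares lay outside the ranges of the other libraries: Nr2f6 held 16.6%, Nr2f2 81.8%, Rara 41.4% and Thrb 91.4%. Exons of Nr2f6 overlap those of Ocel1 on the other strand over 1622 bases, and those of Thra overlap Nr1d1 over 263 bases. Since it is not stated whether counting used strand, part of such counts could belong to the neighbour.

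**Figure D2:**
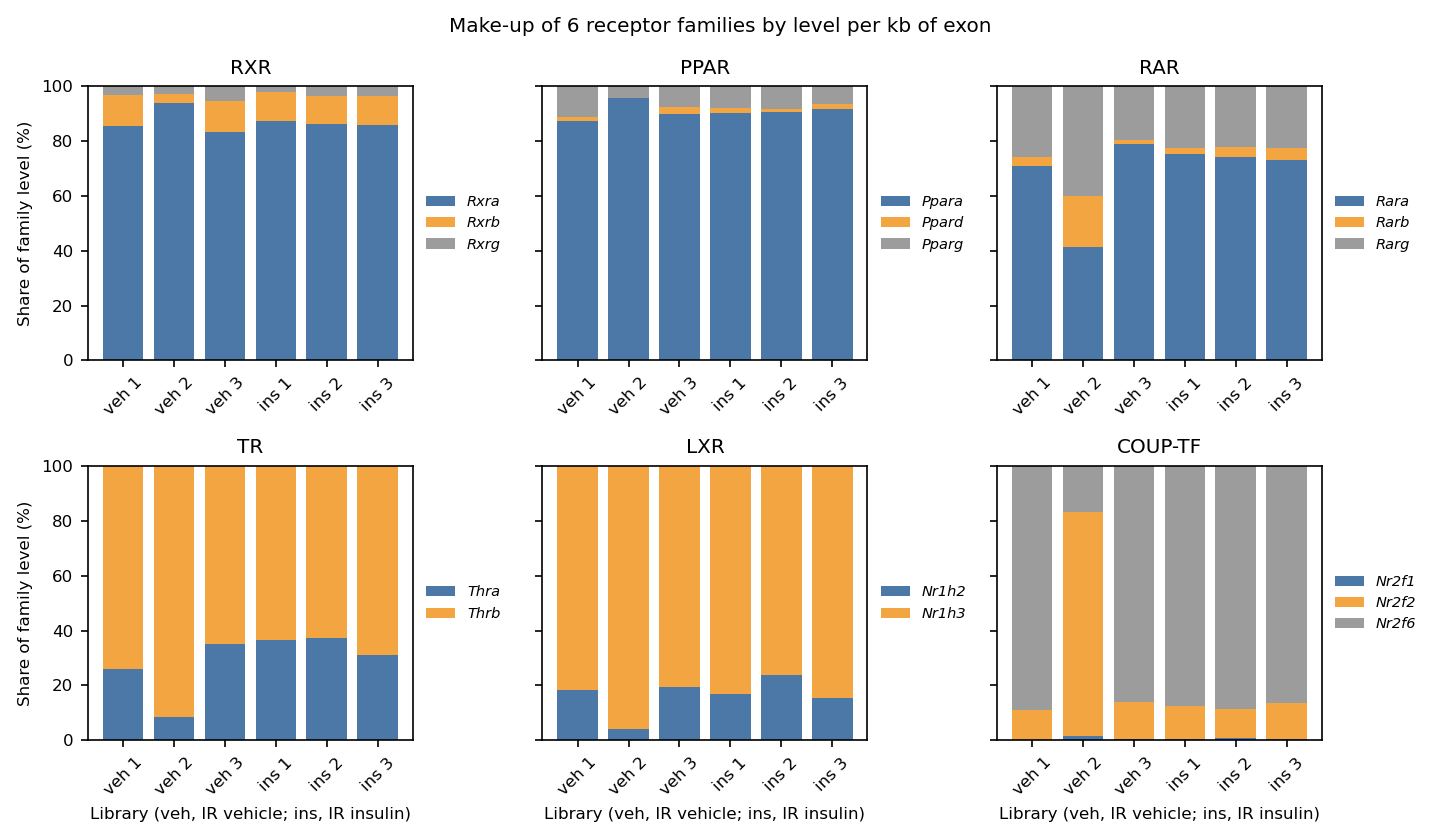
Share of each paralogue in the summed level (CPM per kb of exon) of its family, in percent, for each of the 6 libraries; veh is IR vehicle and ins is IR insulin. In all 6 panels the leading gene of the other 5 libraries lies outside their range in IR vehicle replicate 2, with Nr2f6 at 16.6% of its family there.

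No receptor differed between IR insulin and IR vehicle after adjustment. With edgeR's quasi-likelihood test and Benjamini-Hochberg adjustment over 13377 genes, 0 of 30 members and 0 genes in all (0%) had an adjusted p under 0.05, and the smallest adjusted p was 0.852. Unadjusted p was under 0.05 for 2 of 30 members and for 383 of all genes (2.86%). The study scored a gene as differentially expressed at a log2 fold change of 0.35 or more in size and an unadjusted p under 0.05. For its insulin-responsive candidates the study used stricter cuts, which were not applied here. All 383 genes met both conditions of the rule for differential expression. Among the members these were Esr1 and Rora, both lower with insulin. DESeq2 also gave 0 members with an adjusted p under 0.05, with 3 at an unadjusted p under 0.05, among 3.79% of all genes. The members were split between directions, 16 higher and 14 lower, with a median log2 fold change of 0.011, and the median over all tested genes was −0.017.

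Esr1, the oestrogen receptor α, which binds DNA as a homodimer and shapes lipid handling in liver, had 12.0, 50.6 and 24.3 CPM in IR vehicle replicates 1, 2 and 3, and 10.3, 13.0 and 12.8 CPM in IR insulin replicates 1, 2 and 3. The vehicle values were spread over a wide range, and the lowest of them lay within the insulin range. The edgeR fit put the difference at −1.27 ± 0.48 on the log2 scale (mean ± SE), for which the unadjusted p was 0.0289 and the adjusted p 0.852. Without IR vehicle replicate 2 it was −0.59 ± 0.30 (edgeR unadjusted p 0.0877), and leaving out any of the 3 insulin libraries also ended the call, with values of −1.16 to −1.32.

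Rora, an orphan of the ROR family that feeds into the circadian clock and hepatic lipid metabolism, had 38.2, 89.8 and 56.6 CPM in IR vehicle and 31.7, 35.3 and 39.9 CPM in IR insulin. Again replicates 2 and 3 of IR vehicle were high and replicate 1 lay within the insulin range. In edgeR the log2 fold change was −0.79 ± 0.32 (unadjusted p 0.0414, adjusted p 0.852), and it was −0.41 ± 0.20 without IR vehicle replicate 2. Among the 6 fits that left out a library, only the one without IR vehicle replicate 1 kept the call, at −1.04.

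Thrb was just outside the criteria. It had 25.1, 52.7 and 26.0 CPM in IR vehicle and 19.6, 21.0 and 21.6 CPM in IR insulin, so each vehicle library lay above each insulin library. The log2 fold change was −0.74 ± 0.32 (edgeR unadjusted p 0.0514, adjusted p 0.852). Without IR vehicle replicate 2 it was −0.30 ± 0.14 (edgeR unadjusted p 0.0656), and DESeq2 gave −0.75 with an unadjusted p of 0.0424. The 3 vehicle libraries thus ranked alike, but the size of the difference depended on 1 of them.

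Members whose groups did not overlap were 3 of 30, against 12.3% of all tested genes. Rxra was higher with insulin (1 member, against 6.25% of all tested genes), and Thrb and Nr2c1 were lower (2 members, against 6.04%). Rxra had 335, 247 and 366 CPM in IR vehicle and 366, 383 and 368 CPM in IR insulin. Its log2 fold change was 0.24 ± 0.24 (0.093 to 0.35 over the fits that left out a library). A correction of each library for GC content turned it to −0.20. IR vehicle replicate 3 was all but equal to IR insulin replicate 1. Nr2c1 (TR2, an orphan repressor) had 10.9, 14.1 and 10.9 CPM in IR vehicle and 8.60, 8.79 and 10.7 CPM in IR insulin, a log2 fold change of −0.35 ± 0.24.

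In Hnf4a and Nr1h3 the groups overlapped. Hnf4a had 671, 445 and 717 CPM in IR vehicle and 777, 783 and 506 CPM in IR insulin, and its log2 fold change was 0.17 ± 0.30. Nr1h3 codes for LXRα, an oxysterol receptor that acts on lipogenic genes. It had 110, 121 and 131 CPM in IR vehicle and 119, 103 and 139 CPM in IR insulin. Its log2 fold change was −0.0069 ± 0.22, which a correction of each library for GC content moved to −0.52 ± 0.31 (edgeR unadjusted p 0.133). In CPM without that correction both groups of Nr1h3 covered nearly the same range, and its highest library was 1.35 times its lowest.

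Ppara had 137, 226 and 85.5 CPM in IR vehicle and 153, 160 and 147 CPM in IR insulin. The insulin libraries were close together and lay between the extremes of the vehicle group, so the log2 fold change of 0.040 ± 0.35 became 0.47 ± 0.22 without IR vehicle replicate 2 (edgeR unadjusted p 0.0712) and −0.24 ± 0.27 without IR vehicle replicate 3. Nr1i2 had 70.5, 44.6 and 89.6 CPM in IR vehicle and 73.7, 66.8 and 66.0 CPM in IR insulin, with a log2 fold change of 0.012 ± 0.28. Its partner in xenobiotic sensing, Nr1i3 (CAR), had 13.8, 10.9 and 28.3 CPM in IR vehicle and 22.2, 17.5 and 34.7 CPM in IR insulin, with a log2 fold change of 0.49 ± 0.41. Exons of Nr1i3 overlap those of Tomm40l on the other strand over 3304 bases, so its counts are uncertain.

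The receptors for corticosteroids were Nr3c1 and Nr3c2. Nr3c1 had 69.8, 156 and 55.8 CPM in IR vehicle and 64.3, 64.8 and 61.9 CPM in IR insulin, with a log2 fold change of −0.56 ± 0.38 that became 0.024 ± 0.16 without IR vehicle replicate 2. The 5 other libraries of Nr3c1 thus differed by at most 1.25 times. Nr3c2, the mineralocorticoid receptor, had 5.76, 10.6 and 9.68 CPM in IR vehicle and 4.19, 4.20 and 7.47 CPM in IR insulin, with a log2 fold change of −0.72 ± 0.36 (edgeR unadjusted p 0.0834). Nr3c2 made up 7.15% to 17.1% of the summed level per kb of both genes.

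Among the orphans, Nr5a2 (LRH-1, a regulator of bile acid synthesis) had 40.3, 82.8 and 45.3 CPM in IR vehicle and 34.8, 39.1 and 45.6 CPM in IR insulin, with a log2 fold change of −0.49 ± 0.31 and −0.098 ± 0.17 without IR vehicle replicate 2. Esrra (ERRα, a driver of mitochondrial genes) had 25.6, 2.95 and 72.6 CPM in IR vehicle and 33.6, 28.5 and 39.9 CPM in IR insulin. The lowest and the highest of its 6 values were both vehicle libraries, 24.6 times apart, while its insulin libraries were within 1.40 times. The log2 fold change of Esrra was 0.0099 ± 0.84 with all libraries, −0.53 ± 0.39 without IR vehicle replicate 2 and 1.25 ± 0.75 without IR vehicle replicate 3. Its exons overlap those of Trmt112 on the other strand over 73 bases.

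Nr2f6 had 61.2, 2.33 and 72.8 CPM in IR vehicle and 57.0, 60.0 and 82.7 CPM in IR insulin. In counts, IR vehicle replicate 2 held 38 reads of Nr2f6 where the other libraries held 1157 to 1793. Its log2 fold change was 0.55 ± 0.89, and without IR vehicle replicate 2 it was −0.0053 ± 0.20. The same library was the lowest by far for Nr1h2, Rxrb and Rara. Nr1h2 had 33.2, 6.88 and 41.8 CPM in IR vehicle and 32.4, 43.3 and 33.4 CPM in IR insulin. Rxrb had 31.6, 6.57 and 35.0 CPM in IR vehicle and 33.3, 33.5 and 32.7 CPM in IR insulin. Rara had 12.5, 2.27 and 19.7 CPM in IR vehicle and 16.3, 17.2 and 14.8 CPM in IR insulin. Their log2 fold changes of 0.41, 0.44 and 0.48 were −0.038, −0.00083 and 0.0042 without that library.

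Nr4a1 (Nur77), an immediate-early gene that is induced without a ligand, varied widely within IR vehicle, as Esrra did. It had 1.64, 0.368 and 13.6 CPM in IR vehicle and 2.03, 1.17 and 3.14 CPM in IR insulin, from 6 to 286 counts. IR vehicle replicate 3 was 8.32 times the median of the other 5 libraries, the widest upward departure of any tested member in that library. The log2 fold change was −1.31 ± 1.06 (edgeR unadjusted p 0.249), −1.86 ± 0.79 without IR vehicle replicate 2 and 1.05 ± 0.71 without IR vehicle replicate 3. Its direction was thus set by 1 library.

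Values of the remaining members were as follows. Nr2f2 (COUP-TFII) had 20.7 to 36.3 CPM over the 6 libraries and a log2 fold change of −0.15 ± 0.30, and its exons overlap an RNA on the other strand, B130024G19Rik, over 643 bases. Pparg had 13.4, 7.86 and 5.48 CPM in IR vehicle and 10.4, 11.5 and 8.30 CPM in IR insulin, and a log2 fold change of 0.18 ± 0.36. The 4 adipocyte markers (Adipoq, Plin1, Cfd and Retn, of which 1 had enough counts to be tested) summed to 63.6, 26.6 and 0.191 CPM in IR vehicle and to 154, 96.7 and 25.0 CPM in IR insulin. Pparg and this sum were both lowest in IR vehicle replicate 3, and the part of adipocyte RNA in the Pparg values was not tested. Rxrg had 3.25 to 10.4 CPM and −0.17 ± 0.47, and Thra had 3.07 to 8.82 CPM and 0.26 ± 0.39. These 4 genes had overlapping groups.

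Ppard, the PPAR found in most tissues, had 4.49, 0.859 and 4.77 CPM in IR vehicle and 5.76, 4.07 and 5.54 CPM in IR insulin. Its log2 fold change was 0.59 ± 0.56 (0.15 to 0.92 over the fits that left out a library). Rarg had 2.15 to 5.07 CPM and 0.33 ± 0.36, and Nr2c2 (TR4) had 7.35 to 11.2 CPM and −0.10 ± 0.27. Esrrg (ERRγ) had 3.81, 4.48 and 0.429 CPM in IR vehicle and 1.22, 1.47 and 0.830 CPM in IR insulin, with a log2 fold change of −1.30 ± 0.74. In Esrrg the vehicle values lay on both sides of the insulin values. Its log2 fold change ran from −1.81 to −0.83 over the fits that left out a library. The low transcripts Nr6a1, Rarb and Nr2f1 had mean levels of 0.290, 0.159 and 0.116 CPM per kb and log2 fold changes of −0.19, 0.15 and 0.92, none past an unadjusted p of 0.05. Exons of Rarb overlap those of Top2b on the other strand over 1793 bases, and exons of Nr2c2 overlap Mrps25 over 4590 bases.

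**Figure D3:**
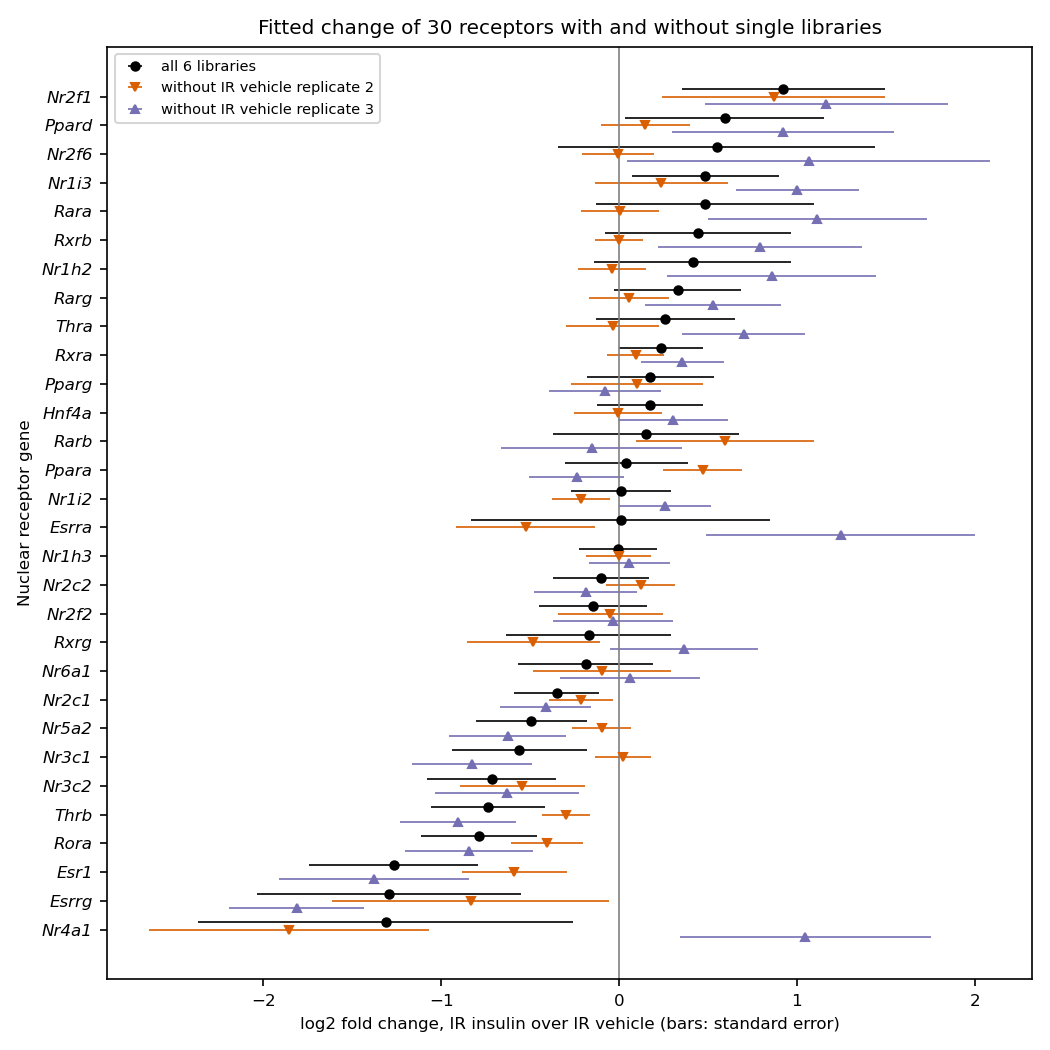
Fitted log2 fold change of the 30 tested receptors (IR insulin over IR vehicle, edgeR; bars are the standard error), with all 6 libraries, without IR vehicle replicate 2 and without IR vehicle replicate 3. Without replicate 2 most points move towards 0 (Nr2f6 from 0.55 to −0.0053), and without replicate 3 Nr4a1 moves from −1.31 to 1.05.

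The vehicle group was the more variable one. The coefficient of variation was larger in IR vehicle than in IR insulin for 26 of 30 members, against 85.1% of all tested genes, with a median of 46.5% in IR vehicle and 14.3% in IR insulin (36.2% and 12.8% over all tested genes). Among the 3 insulin libraries, 21 members differed by under 1.5 times (9626 of all 13377 tested genes did), Rxrb by 1.02 times and Nr3c1 by 1.05 times. Over all 6 libraries the highest value was a median of 2.82 times the lowest, and without IR vehicle replicate 2 this ratio was 1.60 (1.58 for all tested genes). The number of members that stayed within 2-fold was 6 with all libraries and 19 without that one, against 5103 and 9518 of the 13377 tested genes.

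In IR vehicle replicate 2 the receptors departed in both directions. It was the lowest of the 6 libraries for 14 of 30 members (37.4% of all tested genes) and the highest for 11 (35.8%). Relative to the median of the other 5 libraries, 11 members were more than 2-fold below (21.6% of all tested genes) and 6 were more than 2-fold above (12.2%). The direction followed the GC content of the transcript. The 10 members of lowest GC content (40.9% to 47.5%, among them Rora, Nr3c1, Esrrg, Nr5a2, Thrb and Esr1) were all above the other libraries, by 1.31 to 3.95 times. Of the 10 members of highest GC content (56.8% to 67.3%, among them Nr2f6, Rxrb, Nr1h2 and Rara), 9 were below, and Nr2f6 was at 0.0381 times the median of the other libraries.

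The same ordering ran through the fitted changes. Over the 30 members, the Spearman correlation with GC content was −0.82 for the log2 departure of IR vehicle replicate 2 (−0.67 over 13367 genes) and 0.74 for the log2 fold change (0.56 over all). These are descriptions across genes that share the same libraries. Without IR vehicle replicate 2 the correlation of the fold change with GC content was 0.32 over the members and 0.11 over all genes. With a correction of each library for GC content it was 0.43 over the members and 0.0092 over all genes. The 10 members of lowest GC content all had negative log2 fold changes (median −0.64), and 8 of the 10 of highest GC content had positive ones (median 0.37). The members called lower, Esr1 and Rora, are of low GC content (45.4% and 40.9%). With the GC correction Esr1 was at −1.09 ± 0.40 (edgeR unadjusted p 0.0256) and Rora at −0.49 ± 0.24 (edgeR unadjusted p 0.0740), while Thrb, at −0.53 ± 0.21 (edgeR unadjusted p 0.0392), came within the criteria. The part of base composition in these differences was not tested beyond this.

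**Figure D4:**
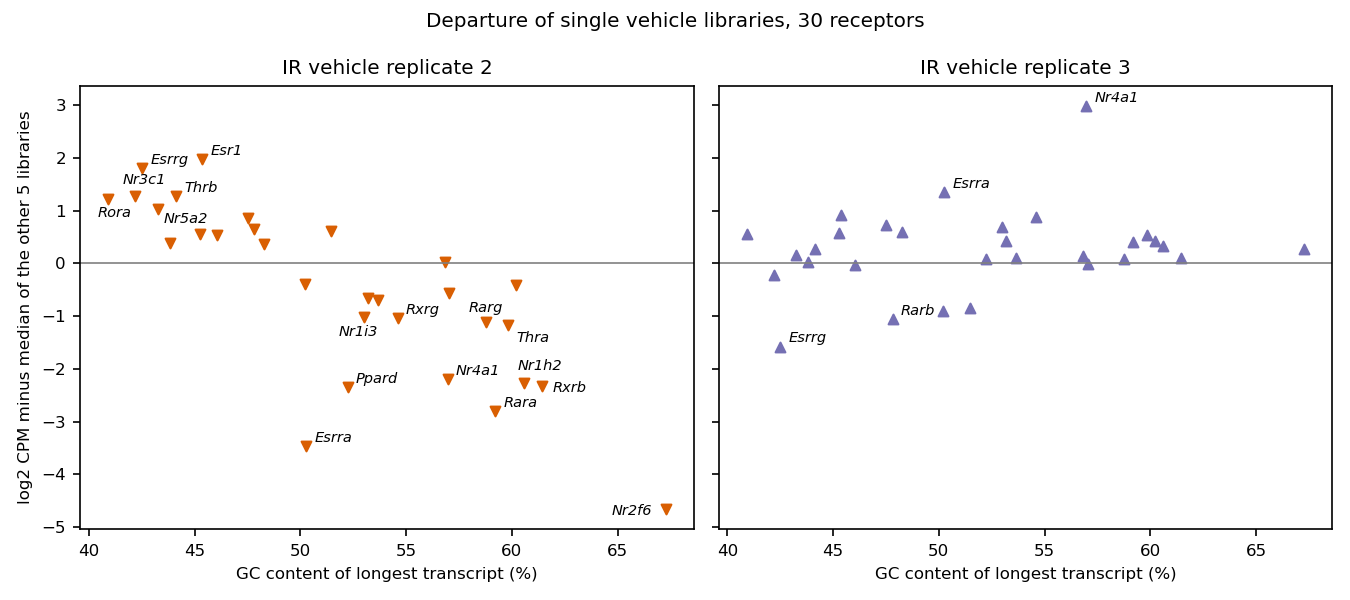
Log2 CPM of IR vehicle replicate 2 (left) and replicate 3 (right) minus the median of the other 5 libraries, for the 30 tested receptors, against the GC content of the longest transcript in percent; members departing by more than 2-fold are named. In replicate 2 the departure falls as GC content rises, from Rora at 40.9% to Nr2f6 at 67.3%, and in replicate 3 Nr4a1 and Esrra stand out.

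IR vehicle replicate 3 was the highest of the 6 libraries for 8 of 30 members (23.4% of all tested genes): Nr1i2, Esrra, Rxrb, Rara, Rxrg, Thra, Nr4a1 and Nr6a1. It was the lowest for 5 (23.8%): Ppara, Nr3c1, Pparg, Esrrg and Rarb. Leaving it out gave 4 members lower by the criteria of the study (Nr3c1, Thrb, Esr1 and Esrrg, against 4.86% of all genes tested) and Nr1i3 higher (1.66%). Leaving out IR vehicle replicate 1 gave 4 lower (Thrb, Rora, Esr1 and Nr3c2, against 5.33%), and leaving out IR vehicle replicate 2 gave 0 of 30 in either direction (3.69% of all genes tested).

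Genes that work with the receptors were read from lists assembled by function, beside the 134 genes higher and 249 lower by the criteria among all 13377 tested. Of 18 coregulators, 0 passed the criteria in either direction, and the median log2 fold change was 0.079 (−0.038 to 0.16 over the 6 fits that left out a library). The smallest p values were those of Tbl1x, a subunit of the NCoR corepressor complex (−0.78 ± 0.36), Ncoa6, a coactivator (0.43 ± 0.23), and Carm1, an arginine methyltransferase of coactivator complexes (0.40 ± 0.23). Tbl1x was 61.1 CPM in IR vehicle replicate 2 and 20.8 to 29.3 CPM elsewhere. Without that library its log2 fold change was −0.26.

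Of 13 PPARα targets, 1 was higher and 0 were lower by the criteria, with a median log2 fold change of −0.10 (−0.12 to 0.10 over the fits that left out a library). Fgf21, the hepatokine of fasting, had 6.66, 2.70 and 5.87 CPM in IR vehicle and 9.91, 8.49 and 13.1 CPM in IR insulin, and each insulin library lay above each vehicle library. Its log2 fold change was 1.04 ± 0.38 (edgeR unadjusted p 0.0247, adjusted p 0.852), and it was 0.75 without IR vehicle replicate 2 and 0.86 without IR insulin replicate 3, which ended the call. Pdk4, a brake on pyruvate oxidation, was at −0.67 ± 0.64, with 66.7 CPM in IR vehicle replicate 1 and 12.2 to 25.3 CPM elsewhere, and Cyp4a10, a fatty acid ω-hydroxylase, was at −0.40 ± 0.45. Ppara itself, as given above, was at 0.040 ± 0.35.

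Of 7 tested PXR and CAR targets, 1 was lower and 0 were higher by the criteria, with a median log2 fold change of −0.00031 (−0.19 to 0.092). Cyp3a11, the classical PXR target among the cytochromes P450, had 614, 1540 and 5084 CPM in IR vehicle and 972, 690 and 475 CPM in IR insulin. Its log2 fold change was −1.76 ± 0.71 (edgeR unadjusted p 0.0380, adjusted p 0.852), and −0.60 without IR vehicle replicate 3, which ended the call, as did leaving out IR insulin replicate 2 or 3. Cyp2b10, the classical CAR target, had 14.7 CPM in the same vehicle library and 1.08 to 4.01 CPM elsewhere, and Cyp2c29 was at −0.47 ± 0.36. Reads of Cyp3a11, Cyp2b10 and Cyp2c29 may be split with close copies of these genes.

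Of 9 HNF4A targets, 1 was higher and 1 lower by the criteria, with a median of −0.42 (−0.53 to −0.29 over the fits that left out a library). Apoa4, an apolipoprotein of triglyceride-rich particles, had 258, 133 and 128 CPM in IR vehicle and 534, 270 and 414 CPM in IR insulin, a log2 fold change of 1.23 ± 0.38 (edgeR unadjusted p 0.0117, adjusted p 0.852). It was 0.74 with the GC correction and 0.99 without IR insulin replicate 1, and both ended the call. Otc, an enzyme of the urea cycle, had 443, 664 and 486 CPM in IR vehicle and 319, 398 and 314 CPM in IR insulin, a log2 fold change of −0.63 ± 0.26 (edgeR unadjusted p 0.0413). It was −0.43 without IR vehicle replicate 2, and its call also ended without any 1 of the insulin libraries. F7, coagulation factor VII, was at −0.51 ± 0.26.

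Of 10 LXR targets, 6 thyroid hormone receptor targets, 7 glucocorticoid receptor targets and 4 tested retinoic acid receptor targets, 0 passed the criteria, with median log2 fold changes of −0.20, −0.12, −0.55 and 0.073. The median of the glucocorticoid receptor targets rested on 1 library: it was 0.22 without IR vehicle replicate 3, with 5 of the 7 genes higher, where 5 were lower with all libraries. Over the fits that left out a library the median ran from −0.35 to −0.098 for the LXR targets, from −0.24 to 0.037 for the thyroid hormone receptor targets and from −0.13 to 0.60 for the retinoic acid receptor targets, the last value being that without IR vehicle replicate 3. Cyp7a1, the rate-limiting enzyme of bile acid synthesis, ranged from 31.4 to 508 CPM within IR vehicle and from 80.2 to 148 CPM in IR insulin. Dusp1, a phosphatase induced by glucocorticoids, had 17.3, 18.2 and 118 CPM in IR vehicle and 22.3, 15.8 and 17.9 CPM in IR insulin, so that its log2 fold change of −1.45 ± 0.72 was 0.073 without IR vehicle replicate 3. Fkbp5 and Sgk1, other glucocorticoid-responsive genes, were at −0.47 ± 0.25 and −0.55 ± 0.32. Dio1, the hepatic deiodinase, was at −0.48 ± 0.39, Gpd2 at −0.19 ± 0.20 and Hr at 0.78 ± 0.86. Of the other genes with the smallest p values, Smpdl3a was at −0.58 ± 0.31 and Mylip at −0.66 ± 0.48.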

How the data were processed

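RNA sequencing was analysed for 6 livers, 3 IR vehicle and 3 IR insulin, each from a separate mouse per the study's methods. The authors deposited raw read counts per gene, neither normalized nor pooled, from NEBNext Ultra libraries sequenced on an Illumina HiSeq and aligned to mm10 with Bowtie2 2.2.3 (submitters' processing notes); the study used DESeq2. The counting program, its annotation and its use of strand are not given in the sources used here, and an aligner without splicing can lose junction reads. Groups and replicate numbers came from the sample titles, and 0 sample columns were left out.

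Members were matched by symbol. The members and the gene lists were chosen with earlier results of these data known, so the target and coregulator lists are no independent evidence. The named genes are all members and, from each other list, the 3 tested genes of smallest unadjusted p, of which a few are not reported here. Gene identifiers were looked up in GENCODE M21 (54495 of 54532 found, 99.9%) for exons, overlaps, transcript GC content and coding sequence, and the zinc finger stretch was located from the translated coding sequence.

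Counts were tested on the whole table with edgeR 4.0.16 (R 4.3.3): TMM, filterByExpr (minimum count 10, minimum total 15), quasi-likelihood F test, no covariate, Benjamini-Hochberg adjustment over 13377 genes. Standard errors were derived from the F statistic. The biological coefficient of variation was 0.357. Alternatives were RLE and upper quartile size factors, DESeq2 1.42.0, voom with sample quality weights (limma 3.58.1), no filter on low counts, a replicate block, a loess offset per library on GC content (span 0.5), both together, and leaving out each library. The fit and the GC offset were also tried on simulated counts with the same dispersion for every gene. That setting is simpler than these data, and no result here rests on its outcome.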

Additional observations from a re-analysis of the deposited data

How the results depend on the processing

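With 3 mice per group and a vehicle group of uneven libraries, only large differences could be detected, and no member had an adjusted p under 0.05 in any of the 14 alternatives (the smallest was 0.473, without IR vehicle replicate 1). Of the 30 tested members, 11 kept the sign of their log2 fold change in all 14, among them Esr1, Rora, Thrb and Nr3c2, and 19 changed sign in at least 1. The causes of the changes were not tested. The number of members lower by the criteria of the study, 2 with all libraries, was 0 with voom (0.785% of all genes) and ran from 0 to 4 over the fits without 1 library, and the number higher ran from 0 to 1. The median log2 fold change of the members, 0.011, was −0.17 with the GC offset and ran from −0.042 to 0.16 without 1 library. The number of members whose groups did not overlap, 3, ran from 4 to 11 there (13.3% to 36.7% of the members, against 17.9% to 31.2% of all tested genes). Fewer libraries make this condition easier to meet, and the share of all tested genes was 12.3% with all libraries. Of the genes of the other lists, 2 were lower and 2 higher by the criteria. Lower were 5 with DESeq2 and without the filter on low counts, 6 with the GC offset, 1 with voom and 0 to 8 without 1 library. Higher were 1 with the GC offset, 0 with voom and 1 to 3 without 1 library.

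Same-numbered libraries did not clearly deviate together (correlations of −0.039, 0.069 and 0.017), and 3 of 6 libraries correlated best with their own number. These values gave no sign that the numbers pair the mice, which 3 mice per group cannot settle. With the replicate block 1 member (Esr1) was lower (0.882% of all genes), 0 list genes were lower, and Cyp26a1 turned to 0.30. With the replicate block and the GC offset together 1 list gene was higher (0.987% of all genes). In that fit the sign turned for Carm1 (−0.032), Cyp26a1 (0.083), Cyp26b1 (−0.34), Hnf4a (−0.076), Nr1i2 (−0.16), Nr2c2 (0.0070), Rarg (−0.11), Rxra (−0.17) and Thra (−0.20).

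The sign also turned with the GC offset for Carm1 (−0.062), Cyp26b1 (−0.39), Esrra (−0.041), Hnf4a (−0.045), Nr1i2 (−0.17), Nr2c2 (0.0051), Ppara (−0.16), Rarg (−0.098), Rxra (−0.20) and Thra (−0.20). With voom it turned for Cyp4a10 (0.24), Nr1i2 (−0.057), Nr2c2 (0.10), Nr6a1 (0.28) and Pparg (−0.0082). It turned for Esrra with RLE (−0.0032) and DESeq2 (−0.0017), for Nr1i2 with DESeq2 (−2.1e-05), and for Nr1h3 with upper quartile factors (0.038) and with no filter on low counts (0.028).

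Over the fits without 1 library, log2 fold changes that took both signs ran from −0.0053 to 0.36 for Hnf4a, −0.11 to 0.094 for Nr1h3, −0.24 to 0.47 for Ppara, −0.21 to 0.26 for Nr1i2, −0.0053 to 1.07 for Nr2f6, −0.83 to 0.024 for Nr3c1, −0.038 to 0.86 for Nr1h2, −0.53 to 1.25 for Esrra, −0.00083 to 0.79 for Rxrb, −0.43 to 0.0048 for Nr2f2, −0.080 to 0.60 for Pparg, −0.48 to 0.36 for Rxrg, −0.036 to 0.70 for Thra, −1.86 to 1.05 for Nr4a1, −0.21 to 0.12 for Nr2c2, −0.47 to 0.061 for Nr6a1 and −0.15 to 0.60 for Rarb. Of the other genes named, they ran from −1.90 to 0.16 for Nr0b2, −1.05 to 0.61 for Pdk4, −0.67 to 0.27 for Cyp4a10, −1.64 to 0.18 for Cyp7a1, −0.93 to 0.051 for Mylip, −1.86 to 0.073 for Dusp1, −0.91 to 1.18 for Cyp26a1 and −0.15 to 0.30 for Cyp26b1.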

Other observations

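Other nuclear receptors of the mouse, outside the 34, were read for comparison. Of 15 such genes, 8 had enough counts to be tested, 0 passed the criteria of the study in either direction, and the median log2 fold change was −0.27 (−0.070 without IR vehicle replicate 2 and 0.14 without IR vehicle replicate 3). Nr1d2, a repressor of the circadian clock, had 56.0, 136 and 82.5 CPM in IR vehicle and 53.5, 64.5 and 50.5 CPM in IR insulin, a log2 fold change of −0.71 ± 0.34 (edgeR unadjusted p 0.0693), and −0.30 without IR vehicle replicate 2. Nr0b2 (SHP), a receptor without a DNA-binding domain that represses bile acid synthesis, had 6.45, 3.19 and 33.9 CPM in IR vehicle and 2.25, 7.40 and 6.50 CPM in IR insulin. Like Nr4a1 and Dusp1 it was highest in IR vehicle replicate 3, and its log2 fold change of −1.43 ± 0.84 was 0.16 without that library.

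Of the retinoic acid receptor targets, Cyp26a1 had 0.740, 0 and 2.48 CPM in IR vehicle and 0.585, 0.563 and 1.48 CPM in IR insulin, and Cyp26b1 had 16.7, 18.5 and 26.9 CPM in IR vehicle and 19.6, 17.4 and 27.9 CPM in IR insulin. Both genes code for enzymes that break down retinoic acid. The groups overlapped in both.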
